A study of Mus musculus with 17 samples.

Results

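The transcription factors described here set and hold the identity of hippocampal neurons, and 9 genes were chosen by symbol: Prox1, Neurod1, Neurod2, Neurod6, Bhlhe22, Bcl11b, Zbtb20, Mef2c and Etv1. Every probe set that the array's annotation gives to one of these symbols alone was taken, and 27 of the 45037 non-control probe sets met this. They belong to 7 genes, with 3 for Prox1, 2 for Neurod1, 3 for Neurod2, 1 for Neurod6, 4 for Bcl11b, 9 for Zbtb20 and 5 for Mef2c. Bhlhe22 had 0 probe sets in the annotation, and the 3 probe sets of Etv1 are shared with the pseudogene Gm5454, so no value is given for either gene. Bhlhe22 encodes a bHLH repressor of excitatory neurons and Etv1 an ETS factor. No filter on dim signals was used, so all 27 probe sets entered each count below.

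The arrays compare mice lacking Foxo1, Foxo3 and Foxo4 in the nervous system (KO; floxed alleles of all 3 genes with hGFAP-cre) with wild-type mice (WT), on a mixed FVB and B6 background. In this model hGFAP-cre acts in progenitors that give rise to both neurons and glia, so both are deleted. Per the study's methods the RNA came from laser-captured dentate gyrus, whereas the labels name brain as the tissue; neither labels nor methods state age or sex for them. There are 17 arrays, each labelled with a mark that is read here as an animal, and the marks 433 (KO) and 437 (WT) have 2 arrays each, one of which has CA13 added to its mark, with no meaning stated. That the marks are separate animals is not spelled out, so p-values measure only the scatter of these arrays, part of which may be technical.

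The labels were set against markers of the cell types. Of 12 markers of dentate granule neurons, 11 lay below the range of all other arrays in both the unmarked KO 433 array and the CA13-marked WT 437 array, with a mean log2 level of 8.06 in each against 11.11 to 11.44 elsewhere. Of 12 measured markers of CA pyramidal neurons, 9 lay above that range in both, and their summed signal was 22370 and 21210 against 3955 to 7217. The unmarked KO 433 array thus goes against its place in the dentate group, while the CA13-marked KO 433 array has the granule profile. These 2 arrays are called CA-like below, and the remaining 15, of 8 KO and 7 WT, granule-profile. In such captured tissue, fewer cells of a type and less RNA per cell cannot be told apart.

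Among the granule-profile arrays Foxo1, the deleted gene, was 7.35 to 9.44 on the log2 scale in KO and 12.33 to 13.95 in WT at its brightest probe set (log2 fold change -5.12, SE 0.30, adjusted p = 6.38e-08 from limma with Benjamini-Hochberg adjustment over all probe sets). Foxo1 in the CA-like arrays was 8.52 in KO and 9.82 in WT. Levels throughout are log2(signal + 32) after quantile normalization of the 17 arrays together, and each gene is represented by its brightest probe set over the 15 granule-profile arrays unless another is named. Adding 32 understates differences of dim probe sets. The number of arrays limits the precision: the standard error of the KO and WT difference was 0.10 to 0.49 for the 27 probe sets.

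Granule neurons of the dentate gyrus and pyramidal neurons of the CA fields arise from neighbouring parts of the hippocampal primordium, and combinations of transcription factors separate them. Prox1, a homeodomain protein, is kept on in mature granule neurons and is needed for their fate over that of CA3 pyramidal neurons. NeuroD proteins are basic helix-loop-helix (bHLH) factors that pair with E proteins and bind E-boxes, DNA sites with the letters CANNTG. Neurod1 is required for granule neurons to form, Neurod2 acts across excitatory neurons, and Neurod6 is best known from pyramidal neurons. Bcl11b (CTIP2) and Zbtb20 are zinc finger proteins, the first needed for granule neuron development and the second for CA1 fate, and Mef2c is a MADS-box factor that limits synapse number.

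The promoters of Neurod6, Prox1 and Mef2c are shown because these genes had the largest differences between CA-like and granule-profile arrays of the same mark at their brightest probe sets. Where a gene has several windows, the one farthest upstream is shown. The windows run from 250 bases before to 50 bases after an annotated start, 5′ to 3′ on the gene's strand, from RefSeq on build GRCm38.p6, with E-boxes in capitals. They lie at chr6:55681214-55681513 (minus strand), chr1:190170778-190171077 (minus strand) and chr13:83503784-83504083 (plus strand).
Neurod6: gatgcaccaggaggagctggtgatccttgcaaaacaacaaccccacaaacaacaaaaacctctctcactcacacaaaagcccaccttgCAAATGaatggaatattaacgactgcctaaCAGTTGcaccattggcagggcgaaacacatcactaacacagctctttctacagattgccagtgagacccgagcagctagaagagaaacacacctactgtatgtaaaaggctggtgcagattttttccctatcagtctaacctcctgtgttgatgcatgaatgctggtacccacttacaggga
Prox1: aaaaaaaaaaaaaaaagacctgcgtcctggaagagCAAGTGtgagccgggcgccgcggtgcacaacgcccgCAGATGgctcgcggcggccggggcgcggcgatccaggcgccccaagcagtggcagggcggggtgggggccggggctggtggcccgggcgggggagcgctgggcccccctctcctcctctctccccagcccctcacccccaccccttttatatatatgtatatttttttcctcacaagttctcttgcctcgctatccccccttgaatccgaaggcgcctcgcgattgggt
Mef2c: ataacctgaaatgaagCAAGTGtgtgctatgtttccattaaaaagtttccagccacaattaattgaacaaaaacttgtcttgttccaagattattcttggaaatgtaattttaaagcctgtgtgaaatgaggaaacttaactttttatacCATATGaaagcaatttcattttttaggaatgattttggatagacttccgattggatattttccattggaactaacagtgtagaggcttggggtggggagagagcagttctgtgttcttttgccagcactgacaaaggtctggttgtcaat

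The table of promoters held 12 windows of this kind for 8 of the 9 genes, all except Bhlhe22. The E-box CANNTG, whose pattern reads the same on both strands, was in 8 of the 12, and in 72.3% of all 32851 windows. The form CAGATG or its reverse complement CATCTG, a subset of those E-boxes, was in 4 of the 12, including the Prox1 window above, and in 17.2% of all windows. The form CAGCTG, also such a subset, was in 0 of the 12 and in 16.3% of all. A FOXO motif, GTAAACA or TGTTTAC, was in 0 of the 12 and in 3.65% of all. A match is a description of the letters and not of a bound site.

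Granule-profile and CA-like arrays are compared here without a test, since the 2 CA-like arrays were named from marker levels of these same data. Neurod6 was far higher in both CA-like arrays, Prox1, Mef2c and Neurod1 were lower in both, and Neurod2, Bcl11b and Zbtb20 did not leave the granule range at their brightest probe sets. Counted over all probe sets of the members, both CA-like arrays lay outside the range of the 15 granule-profile arrays on one side for 8 of 27 (29.6%), 7 below it and 1 above, against 9.26% of all probe sets (4.04% below and 5.22% above). Within animals the difference was negative for both marks in 21 of the 27 (77.8%, against 30.3% of all probe sets), positive for both in 3 (against 30.9% of all) and of opposite sign in 3. Probe sets of 1 gene are not independent of each other.

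**Figure D1:**
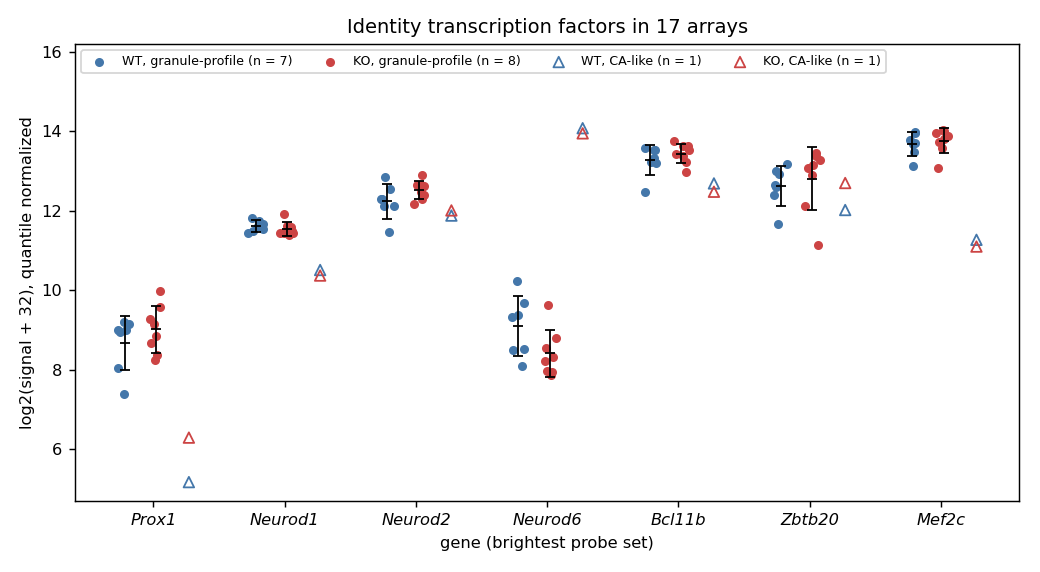
Level of the 7 measured genes on each of the 17 arrays (y axis, log2(signal + 32) after quantile normalization; x axis, gene, brightest probe set). Filled points are granule-profile arrays (7 WT, 8 KO) with mean and SD, and open triangles are the 2 CA-like arrays. Neurod6 in the CA-like arrays (13.95 and 14.08) lies above its granule range of 7.86 to 10.24, and Prox1 (6.29 and 5.17) below its range of 7.40 to 9.97.

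Prox1 (chr1:190118035-190170827) had a granule range of 7.40 to 9.97 with a median of 8.99. It stood at 6.29 in the CA-like array of KO 433, whose granule-profile array was at 9.28, and at 5.17 in that of WT 437, against 9.15. Both CA-like arrays were thus below every granule-profile array, with within-animal differences of -2.99 and -3.98. On the deposited linear scale the signal was 49.5 and 4.38 in the CA-like arrays and 601.1 and 532.1 in the granule-profile arrays of the same marks. The size depends on what is added before the log, since the mean within-animal difference was -3.49 with 32 and -5.20 with 1, and smaller (-2.19) with a larger addition. The other 2 Prox1 probe sets were also lower in the CA-like array of both animals, by a mean of -1.65 and -0.55, but overlapped the granule range.

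Neurod6 (chr6:55677818-55681263) had the reverse pattern and the largest difference of any member. Its single probe set had a granule range of 7.86 to 10.24 with a median of 8.53, and stood at 13.95 and 14.08 in the CA-like arrays of KO 433 and WT 437. The granule-profile arrays of these animals were at 8.80 and 9.33, which leaves differences of 5.15 and 4.75. The deposited signal was 17620 and 18880 in the CA-like arrays and 195.5 to 1203 over the 15 granule-profile arrays.

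Neurod1 (chr2:79452637-79456636) varied little among granule-profile arrays, from 11.38 to 11.93 with a median of 11.53. The CA-like arrays were at 10.37 and 10.51, below all 15, with within-animal differences of -1.06 and -1.12. Its second probe set fell within the granule range, with CA-like levels of 10.48 and 10.53 and a range of 10.28 to 11.93, although both within-animal differences were again negative (-1.20 and -0.90).

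Neurod2 (chr11:98325415-98329645) overlapped between the regions. The granule range was 11.46 to 12.91 with a median of 12.40, and the CA-like arrays were at 12.01 and 11.88. The differences within the animals, -0.16 and -0.66, were small beside the granule range. The low end of that range is 1 array, WT 392, without which the range starts at 12.11, above both CA-like arrays. The other Neurod2 probe sets were also lower in both animals, by a mean of -0.53 and, at a dim one, -0.89, but overlapped the granule range. Of the 3 NeuroD genes with values, Neurod6 was higher, while Neurod1 and Neurod2 were lower within both animals at every probe set. At the brightest probe sets, Neurod1 lay below the granule range, and Neurod2 overlapped it unless WT 392 was left out.

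Mef2c (chr13:83504017-83667079) had a granule range of 13.09 to 14.03 with a median of 13.79, and was at 11.10 and 11.27 in the CA-like arrays. All 15 granule-profile arrays lay above both, with within-animal differences of -1.99 and -2.22. The second brightest was lower as well, at 7.84 and 7.59 against a granule range of 9.0 to 11.14. The probe sets of Mef2c did not all move alike: in order of brightness, the third was lower in both animals with a mean difference of -1.96, the fourth was higher in both with 0.68, and the fifth had 1.03 in KO 433 and -1.36 in WT 437.

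Bcl11b (chr12:107910403-108004145) was lower in the CA-like array of both animals at all 4 probe sets, and in 3 of the 4 both CA-like arrays lay below the whole granule range. Its brightest probe set is the exception, with CA-like levels of 12.48 and 12.69 and a granule range of 12.48 to 13.75 (median 13.43). The low end of that range is 1 array, WT 392, without which the range starts at 12.97. For the probe sets below the range, mean within-animal differences were -1.45 (10.19 and 10.39 against 10.87 to 12.03), -2.42 (6.55 and 6.51 against 7.19 to 9.74) and -0.52 (7.47 and 7.44 against 7.82 to 8.87).

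Zbtb20 (chr16:42875689-43634392) spread more widely among granule-profile arrays than it differed between regions. Its brightest probe set ran from 11.14 to 13.45 with a median of 12.93, and the CA-like arrays were at 12.70 and 12.02, with differences of -0.56 and -0.58. For 6 of its 9 probe sets both within-animal differences were negative, for 1 both were positive, and none of the 9 had both CA-like arrays outside the granule range. The probe sets with negative differences in both animals had means of -0.34 to -1.15. Both CA-like arrays belong to the larger of the array series described below. Against the granule-profile arrays of that series alone, both were below the range for the fourth and sixth in brightness. These stood at 9.93 and 9.85 against 10.22 to 11.11, and at 7.84 and 7.96 against 8.50 to 10.08. The share of all probe sets outside the range of these fewer arrays was not counted.

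**Figure D2:**
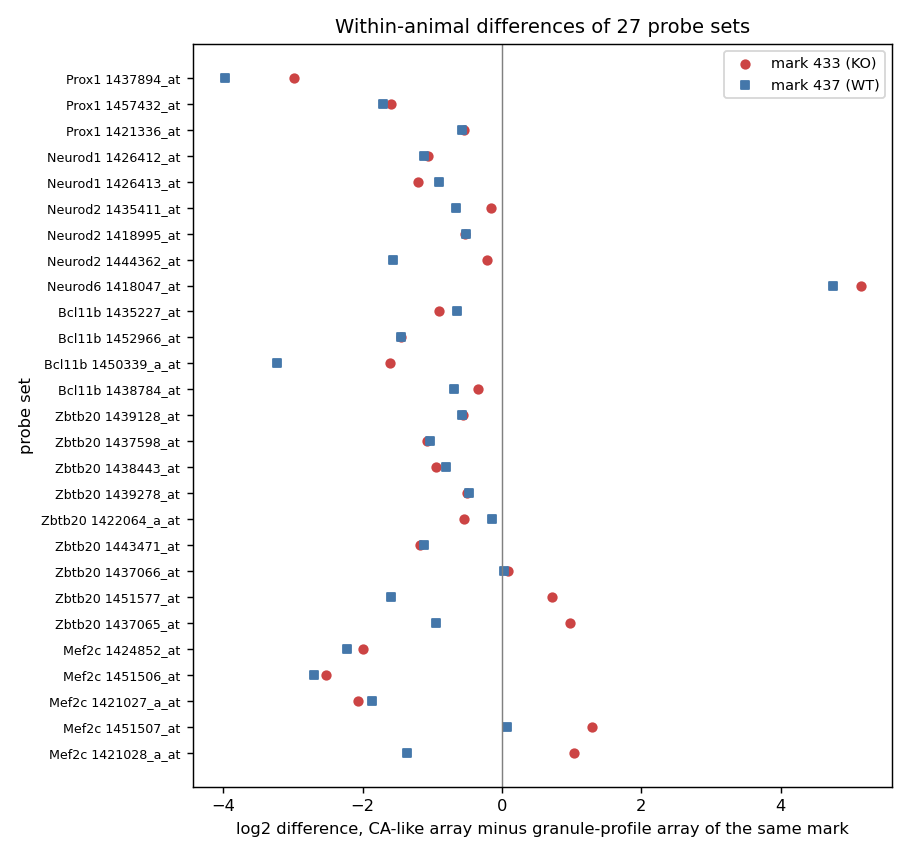
Difference in level between the CA-like and the granule-profile array of the same animal (x axis, log2) for each of the 27 probe sets (y axis), with circles for KO 433 and squares for WT 437. Neurod6 lies at 5.15 and 4.75, and 21 of the 27 probe sets are below 0 in both animals, against 30.3% of all probe sets.

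The array WT 392 sets several of these ranges. It was the lowest of the 15 granule-profile arrays for 8 of the 27 member probe sets, against 15.6% of all probe sets. Among the 7 brightest ones it was lowest for 3, and the share over the brightest probe sets of all genes was not counted. Without it, both CA-like arrays lay outside the range for 11 of 27 member probe sets (40.7%, against 11.1% of all), and Neurod2, whose range then started at 12.11, and Bcl11b joined at their brightest probe sets. Its mean over the 12 granule neuron markers was 11.44, the highest of the 15 arrays. Its summed microglia marker signal was 27160 against 6637 to 13980 in the other granule-profile arrays. By mean log2 level over these markers it stood at 8.04, close to the 7.98 of KO 391 and of WT 206. The sum rests mostly on Csf1r, at 12.67 to 14.32 over the 15 arrays, since no other listed microglia marker exceeded 8.12. The part of these marker levels in the results was not tested.

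Other transcription factors of the forebrain give the setting for these differences. Of 25 measured genes of this kind, 4 had both CA-like arrays above the granule range and 4 below it, against 12.1% of all genes on either side at 1 probe set per gene. Meis2, a TALE homeodomain factor, was at 11.91 and 12.29 against 7.46 to 10.69 (mean within-animal difference 4.52), and Fezf2, known for subcortical projection neurons, at 10.51 and 10.42 against 6.99 to 8.79 (3.09). Foxp1 (1.27) and Bcl11a (0.89), a relative of Bcl11b, were above the range as well. Rfx3 was at 9.61 and 9.53 against 10.50 to 11.85 (-2.17), and the nuclear factor I genes Nfib (-1.23) and Nfia (-0.79) were below the range, whereas Nfix (-1.15) overlapped it.

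Partners and relatives of the members are given by the same measure, beside the 12.1% of all genes. Of 13 measured bHLH partners and antagonists, 1 was outside the range on one side: Hes1, a Notch target that represses neurogenic bHLH genes, was at 6.92 and 7.05 against 5.17 to 6.79. The E protein gene Tcf12 had a mean within-animal difference of -0.62, Id2 -1.23 and Id4 -0.75, the last 2 encoding proteins that sequester E proteins, and none of the 3 left the range. Of the 7 genes of the MEF2 family and class IIa histone deacetylases, which bind and repress MEF2 factors, Hdac9 (0.84) and Hdac4 (0.53) were above the range and no gene was below it. Mef2d, at 11.71 and 11.67 against 11.57 to 12.54, overlapped it.

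**Figure D3:**
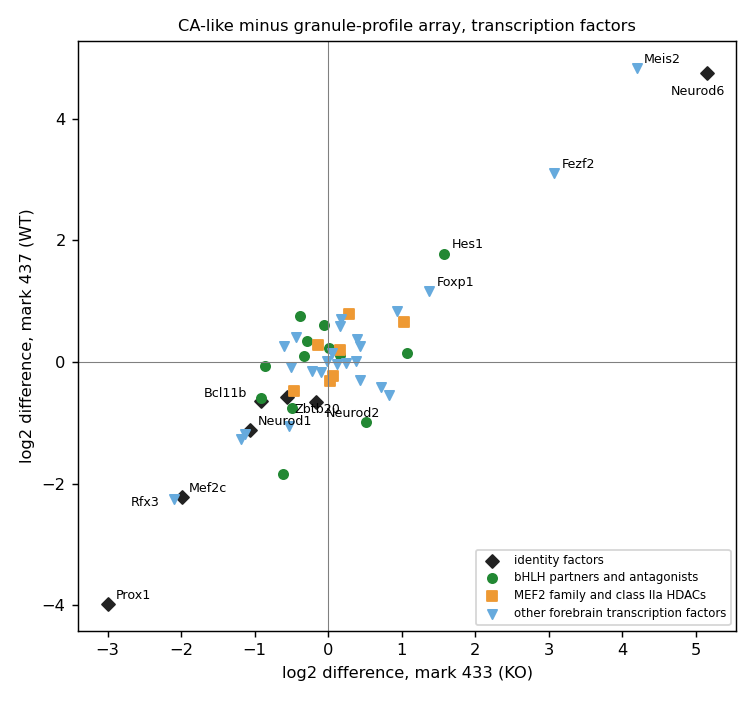
Difference between the CA-like and the granule-profile array of KO 433 (x axis, log2) and of WT 437 (y axis, log2) for the 7 identity factors (diamonds) and 3 lists of other transcription factors and regulators, brightest probe set per gene. Prox1 (-2.99 and -3.98) and Neurod6 (5.15 and 4.75) lie at the ends, with Meis2, Fezf2 and Rfx3 the farthest of the other genes.

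The genes most like Prox1 and Neurod6 over the 17 arrays were ranked by the mean absolute difference of levels after each was centred on its own mean, a measure to which the 2 CA-like arrays add most. For Prox1 these were Igfbp5 (0.27), Shisa9 (0.36) and Rreb1 (0.37), with a median over genes of 0.93. Igfbp5, which encodes a binding protein of insulin-like growth factors, was at 7.15 and 6.34 in the CA-like arrays against 9.34 to 10.41. For Neurod6 these were Sema3e (0.45), Pou3f1 (0.62) and Dkk3 (0.64), with a median of 1.31. Sema3e, a secreted guidance cue, was at 13.71 and 13.58 against 9.02 to 11.01, and Pou3f1 is itself on the list of CA markers used to name the arrays.

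For KO against WT, no member changed among the granule-profile arrays at an adjusted p under 0.05 in limma. This was 0 of 27 probe sets, against 0.0155% of all (7 probe sets, 3 of them of Foxo1, 3 of the protamine gene Prm1 and 1 of Gm34303). At an unadjusted p under 0.05 it was 2 of 27 (7.41%), both lower in KO, against 3.31% of all. KO and WT arrays did not overlap in 0 of 27, against 0.0333% of all. The log2 fold changes ran from -0.84 to 0.41 with a median of 0.03 (0.00 over all probe sets), with 19 above 0 and 8 below.

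**Figure D4:**
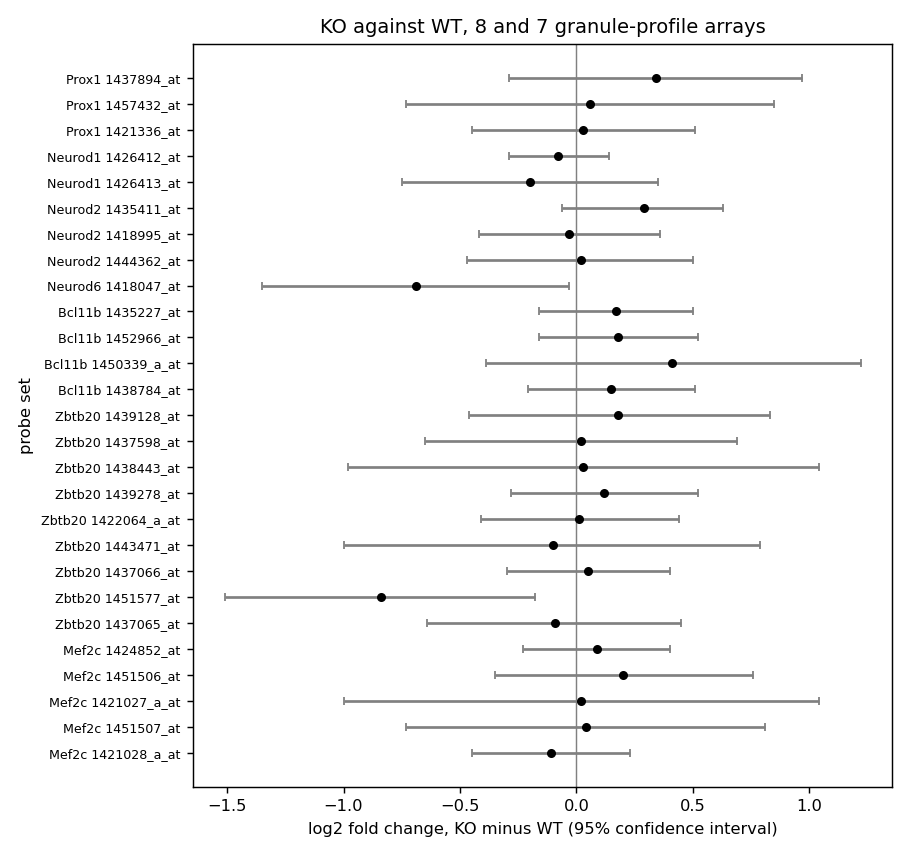
Log2 fold change of KO over WT (x axis) with its 95% confidence interval from limma for each of the 27 probe sets (y axis), 8 KO and 7 WT granule-profile arrays. The intervals of Neurod6 (-1.35 to -0.03) and of a dim Zbtb20 probe set (-1.51 to -0.18) exclude 0 before adjustment over all probe sets.

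Neurod6 was 7.86, 8.26 and 9.64 in KO (lowest, median and highest of 8) and 8.09, 9.33 and 10.24 in WT (of 7). The means were 8.41 ± 0.59 (SD, n = 8) and 9.10 ± 0.76 (SD, n = 7), and the groups overlapped over most of their range. KO minus WT was -0.69 on the log2 scale (SE 0.31, 95% interval -1.35 to -0.03), with an unadjusted p of 0.0403 and an adjusted p of 1 from limma, and the two-sided exact permutation test over all 6435 splits gave p = 0.0688. The summed CA marker signal was 4848 to 7217 in KO and 3955 to 6126 in WT granule-profile arrays, and the median log2 fold change of the 12 CA markers was 0.15. KO 391 and WT 393, the arrays highest in Neurod6 in their groups, were also those with the highest mean CA marker level, 8.53 and 8.51. By summed signal, however, WT 392 (6126) was above WT 393 (5873). WT 437, with the lowest mean CA marker level of the granule-profile arrays (7.89), had Neurod6 at 9.33, the WT median. The part of carried-over CA tissue in the difference was not tested. With the groups as labelled, which puts the CA-like KO 433 array in the KO group, the log2 fold change was -0.05.

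A Zbtb20 probe set, the eighth of 9 in brightness and singled out after its values were seen, was the other one with an unadjusted p under 0.05. It was 5.46, 5.78 and 7.51 in KO and 5.64, 6.64 and 7.59 in WT, near the floor that the added 32 sets. KO minus WT was -0.84 on the log2 scale (SE 0.31, 95% interval -1.51 to -0.18, unadjusted p = 0.0153 and adjusted p = 1 from limma, exact permutation p = 0.0345). The other 8 probe sets of Zbtb20 did not share it, with log2 fold changes of -0.10 to 0.18, and the brightest was 11.14, 13.12 and 13.45 in KO against 11.67, 12.64 and 13.17 in WT (0.18, interval -0.46 to 0.83).

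Prox1, the granule neuron factor, was 8.25, 9.01 and 9.97 in KO and 7.40, 8.99 and 9.20 in WT, a log2 difference of 0.34 (SE 0.30, 95% interval -0.29 to 0.97). The medians were nearly equal, and the lowest WT value is again WT 392. Neurod1 was 11.38, 11.47 and 11.93 in KO and 11.43, 11.63 and 11.82 in WT. Its log2 fold change of -0.08 (interval -0.29 to 0.14) has the narrowest interval of the members.

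Neurod2 was 12.18, 12.54 and 12.91 in KO and 11.46, 12.29 and 12.86 in WT (log2 fold change 0.29, interval -0.06 to 0.63). Bcl11b was 12.97, 13.48 and 13.75 in KO and 12.48, 13.33 and 13.58 in WT (0.17, interval -0.16 to 0.50), and all 4 of its probe sets had values above 0, from 0.15 to 0.41. Mef2c was 13.09, 13.84 and 14.03 in KO and 13.13, 13.70 and 13.99 in WT (0.09, interval -0.23 to 0.40). Leaving out WT 392 alone took the log2 fold change of Bcl11b from 0.17 to 0.04, that of Prox1 from 0.34 to 0.13, that of Neurod2 from 0.29 to 0.16 and that of Mef2c from 0.09 to 0.00, while that of Zbtb20 ran from 0.02 without WT MS17 to 0.42 without KO 903. The groups overlapped in each, and the adjusted p was 1 in limma for all 27 probe sets. Such a p does not show that the levels were equal, and the intervals give the differences that these arrays cannot separate.

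The related lists had 0 genes at an adjusted p under 0.05 in limma. For bHLH partners and antagonists, 0 of 13 had an unadjusted p under 0.05, the smallest being those of Neurod4 (log2 fold change -0.34), Id4 (-0.31) and Tcf4 (0.16), and the median was 0.05 against 0.01 over all 18193 genes. For the MEF2 and deacetylase list it was 0 of 7, with a median of 0.04 and Hdac7 (0.29) having the smallest p. Among the 25 other forebrain factors 0 were higher and 2 lower before adjustment, Etv5 (-0.50), an ETS factor related to Etv1, and Klf7 (-0.31), a Krüppel-like factor, with a list median of -0.09.

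Markers of cell types had 0 calls at an adjusted p under 0.05 in limma as well. Of 12 granule neuron markers 1 had an unadjusted p under 0.05 in limma, Trpc6, a cation channel (-0.72), and the list median was -0.05. Among the other cells that a capture could hold, Wfs1 of the CA list (0.29), Cnp of oligodendrocytes (0.64), Tmem119 of microglia (-0.74) and Sox11 of immature neurons (-0.40) were the only listed markers with an unadjusted p under 0.05, each with an adjusted p of 1, and no astrocyte, interneuron or endothelial marker was. The largest list medians were -0.37 for 7 progenitor and immature neuron markers and 0.31 for 6 oligodendrocyte markers.

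Levels of several members differed by the array series that the sample names carry, a larger one of 11 granule-profile arrays (6 KO and 5 WT) and a smaller one of 4 (2 KO and 2 WT). The 2 series did not overlap for 6 of 27 member probe sets (22.2%), all lower in the smaller series, against 4.87% of all probe sets. The third Mef2c probe set was 7.78 to 8.18 in the smaller series and 9.15 to 11.06 in the larger. The third Zbtb20 probe set was 9.36 to 10.85 against 11.51 to 12.84, and the sixth 6.94 to 7.87 against 8.50 to 10.08. Prox1 was 7.40 to 8.36 against 8.67 to 9.97 at its brightest probe set, and the second of Zbtb20 and the brightest of Bcl11b were lower without overlap as well. The brightest probe set of Mef2c did not show this, with 13.13 to 13.99 against 13.09 to 14.03. Both CA-like arrays are of the larger series. Against its 11 granule-profile arrays alone, both were below the range for the brightest of Neurod2 and Bcl11b and the third of Mef2c. Neurod2 stood at 12.01 and 11.88 against 12.11 to 12.91, and Bcl11b at 12.48 and 12.69 against 13.24 to 13.75. The third of Mef2c stood at 8.15 and 7.73 against 9.15 to 11.06. A range over fewer arrays cannot be wider, and the share of all probe sets outside the range of these 11 was not counted.

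**Figure D5:**
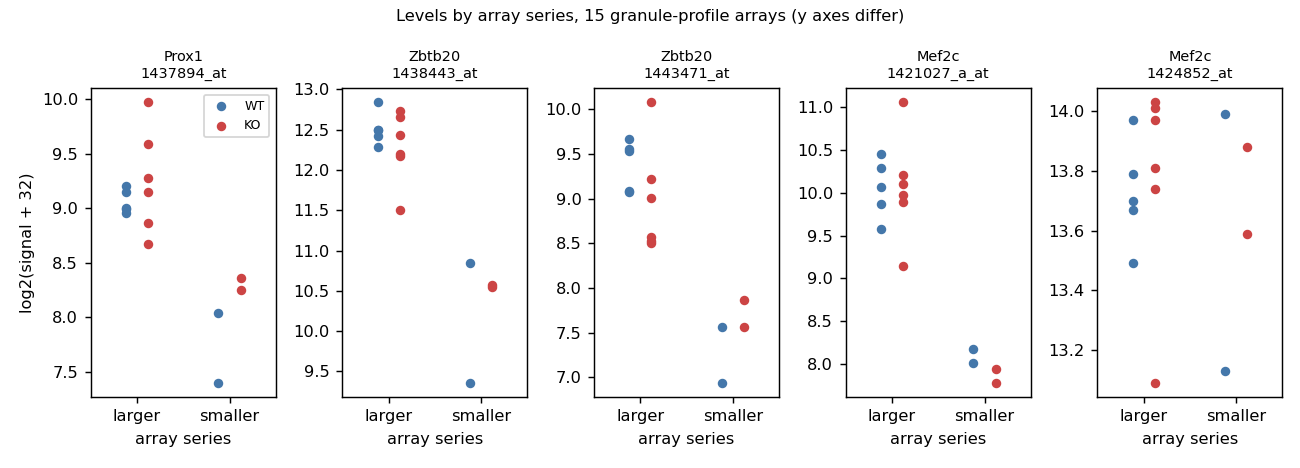
Level of 5 probe sets (y axes, log2(signal + 32), scales differ) in the granule-profile arrays of the larger and the smaller array series (x axis), WT in blue and KO in red. In the first 4 panels the 4 arrays of the smaller series lie below all 11 of the larger, and the brightest Mef2c probe set (13.13 to 13.99 against 13.09 to 14.03) overlaps.

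Both genotypes were low together in the smaller series: for the third Mef2c probe set the means were 7.86 in KO and 8.10 in WT there and 10.07 and 10.05 in the larger. Within the larger series the KO and WT difference of Neurod6 was -0.54, and within the smaller, with 2 arrays a group, -1.02. Those of Prox1 were 0.19 and 0.59, and those of Neurod2 0.10 and 0.76. A limma term for a change of the KO and WT difference from one series to the other was also fitted. It passed an adjusted p of 0.05 for 0 of 27 member probe sets and 0 of all, and its smallest unadjusted p among the members was 0.0692. Neither labels nor methods say what the series stand for.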

How the data were processed

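The deposited table holds 1 signal intensity per probe set for each of 17 arrays and 45101 probe sets, which the authors had summarised and left on a linear scale. The submitters' notes name MAS5 for it, the study's methods name RMA and SAM, and every column had been scaled by the authors to a common trimmed mean of 500. Signals ran from 0.112 to 94000 and array medians from 88.1 to 123. After 64 control probe sets were left out, log2(signal + 32) was taken and quantile normalized, and limma 3.58.1 in R 4.3.3 (genotype only, intensity trend, Benjamini-Hochberg adjustment over 45037 probe sets) was fitted to the 15 granule-profile arrays. SAM was not run, since it permutes the samples across all probe sets. The fit was tested on simulated data with independent normal noise and no difference between array series, so that test does not cover the series. No 2 columns were identical (highest correlation 0.972). The Gapdh 3' to 5' log2 ratio was 5.04 to 6.41 in KO and 5.11 to 6.23 in WT, so the 3' signal was far above the 5' signal on every array. Where the member probe sets lie on their transcripts was not determined. The part of this 3' excess in the disagreement between probe sets of a gene was not tested. Names come from the platform annotation, in which 34945 probe sets have 1 symbol, 932 several and 9160 none, and gene coordinates from RefSeq on GRCm38.p6; the build of the array design is not stated there. All member probe sets are covered; of each other list up to 3 genes with the smallest p were named and, for transcription factors, up to 4 with the largest regional difference in each direction. The members and lists were chosen with earlier results of these data known. Alternatives covered the pseudocount, scaling, dim probe sets, sample choice, array series, array weights, the t-test of the methods' general statistics and leaving out each array.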

Additional observations from a re-analysis of the deposited data

Results flagged for a closer look

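In 7 of 54 tests of the 8 KO or 7 WT granule-profile arrays, for 27 probe sets in each group, 1 array stood far from the rest by Dixon's criterion. For independent, normally distributed values chance gives about 1 in 20. The tests share arrays and genes, and the share of all probe sets flagged by this rule was not counted. Whether 7 is more than for other probe sets is therefore not known. WT 392 was lowest for the second brightest Prox1 probe set (5.41, nearest array 7.13) and for the brightest of Bcl11b (12.48, nearest 13.21). The KO 433 array with the CA13 mark was lowest for the brightest Mef2c probe set (13.09, nearest 13.59) and for the fourth of Mef2c (6.67, nearest 8.66). KO 903 was highest for the brightest of Neurod1 (11.93, nearest 11.62), KO MS15 was highest for the eighth of Zbtb20 (7.51, nearest 6.06), and WT 437 was highest for the third of Neurod2 (6.74, nearest 5.38).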

How the results depend on the processing

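No member probe set reached an adjusted p under 0.05 in limma under any alternative or with any array left out. The methods name a t-test for comparisons of groups in general, and SAM for these arrays. Before adjustment that t-test gave 1 member and 1578 of all probe sets, and 3 of all after Benjamini-Hochberg. The count of called probe sets, 7 in the fit as reported, was 4 within the larger array series, 0 within the smaller, 12 with array weights and 6 to 11 with 1 array left out (11 without WT MS17). With the groups as labelled, the log2 fold changes of Prox1 (-0.03) and Mef2c (-0.16) changed sign, as did Neurod1 within the smaller series (0.01); with 1 array left out Mef2c ran from 0.00 (without WT 392) to 0.18. Neurod6 ran from -1.02 to -0.05 over 14 settings and from -0.87 to -0.50 with 1 array left out. At the brightest probe sets, 4 of 7 genes had both CA-like arrays outside the granule range, against 12.1% of all genes. This became 2 of 6 at the second brightest probe sets (Bcl11b, which was not among the 4, and Mef2c), with no second one for Neurod6. It was 4 to 6 of 7 when arrays were left out, an alternative added after the data were seen (6 without WT 392). The share over all genes was not counted under these alternatives, and a range over fewer arrays cannot be wider. The cause of these shifts was not tested. With the array series, which both genotypes share, as a block, 10 probe sets were called, 0 of them members, and Neurod6 was -0.67. No paired analysis was possible because the labels tie no KO array to a single WT array. Precision is limited by 8 and 7 arrays.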
